A study of Mus musculus with 12 samples.

Results

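The thick filament of the sarcomere carries a set of accessory proteins, and 9 of their genes were followed here through the tibialis anterior, a fast muscle of the shin. They were the myosin-binding protein genes Mybpc1, Mybpc2, Mybpc3, Mybph and Mybphl, and the M-band genes Myom1, Myom2, Myom3 and Obsl1. The genes were picked by symbol for the protein families they encode, from the 23923 genes in the files, with earlier results of these data known. Of the 9, 7 reached 0.1 FPKM in at least 6 of the 12 mice and could be tested. FPKM counts sequenced fragments relative to the length of the transcript and the size of the library, so that levels of different genes can be set beside each other. Mybpc3 and Mybphl stayed below that limit in every mouse.

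All 12 mice were 6 weeks old, of the mixed strain C57BL6/J;129S1/SvImJ, and carried Myf6 cre/+ and a Rosa26 YFP reporter allele. The paper states that its experiments after the first histology used tissue of males only. The 6 controls were Smyd1 flox/+ and the 6 conditional knockouts (CKOs) were Smyd1 flox/-. Cre is made from the Myf6 gene in muscle fibers, where recombination sets in around birth. Controls can therefore lose their floxed copy in fibers as well and keep a wild-type copy there, while satellite cells, fibroblasts and other cells of the muscle are not its intended target.

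Myosin-binding protein C forms stripes along the thick filament, where it holds myosin heads and reaches toward actin, and it exists in a slow skeletal form (Mybpc1), a fast skeletal form (Mybpc2) and a cardiac form (Mybpc3). Myosin-binding protein H (Mybph) is a shorter relative that lies in the same region of the filament, and Mybphl is its cardiac, mainly atrial, counterpart. At the center of the sarcomere the myomesins cross-link neighbouring thick filaments into the M-band, with Myom1 present in all striated muscle, Myom2 in fast fibers and Myom3 in slower fibers. Obsl1 binds titin and myomesin at the M-band. SMYD1 is a muscle methyltransferase that has itself been placed at the M-band and tied to the assembly of myosin into thick filaments. The comparison asks whether the mRNA of these thick filament partners differs when fibers lack SMYD1.

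The DNA just upstream of the start site is shown for Mybph and Myom3, the genes whose levels differed most between the groups, and for Mybpc2, the most abundant member in the mean. The windows come from the RefSeq promoter table (build GRCm38.p6), which held 8 of the 9 genes and not Myom2. Capitals mark an E-box (CANNTG, bound by MyoD-type factors), an MCAT element (CATTCC on either strand, bound by TEAD factors) or a MEF2 motif.
Mybph, chr1:134193288-134193417, plus strand, from 160 to 31 bases upstream: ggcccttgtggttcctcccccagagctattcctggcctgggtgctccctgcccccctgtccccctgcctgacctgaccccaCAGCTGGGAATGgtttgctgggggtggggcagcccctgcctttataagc
Myom3, chr4:135759555-135759714, plus strand, from 160 to 1 bases upstream: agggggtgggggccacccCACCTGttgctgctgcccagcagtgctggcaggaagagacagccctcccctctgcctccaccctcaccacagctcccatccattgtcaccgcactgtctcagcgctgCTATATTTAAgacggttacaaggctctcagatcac
Mybpc2, chr7:44524716-44524829, minus strand, from 160 to 47 bases upstream: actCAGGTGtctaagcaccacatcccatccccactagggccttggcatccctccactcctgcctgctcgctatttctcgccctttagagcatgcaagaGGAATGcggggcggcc
In Mybph the E-box at 79 bases upstream runs straight into the MCAT element at 73 bases without sharing a base. Mybpc2 held the same pair of motifs farther apart, at 157 and 62 bases. Myom3 had an E-box at 142 bases and a MEF2 motif at 35 bases. Among 32851 RefSeq windows of 250 bases upstream of a start site, searched on both strands, 66.2% held an E-box, 12.6% an MCAT element and 2.92% a MEF2 motif. These matches describe letters and not bound sites.

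Across the libraries, relative depth ran from 0.984 to 1.77 times that of control 1 and the total FPKM from 110124 to 156610. The relative depth is an indirect estimate, taken from the ratios between libraries of FPKM values below 0.15. Control 1 stood apart, with a summed level of fibroblast markers of 680 FPKM against 177 to 224 in the other controls. Several results that turn on it are given without it as well. Smyd1 itself was at 33.0 to 47.1 FPKM in controls and 27.8 to 39.9 FPKM in CKOs (log2 fold change -0.13 ± 0.12 SE, adjusted P = 0.545). After median-ratio scaling, which divides each library by its median ratio to a common reference, its log2 fold change was -0.32 ± 0.08 SE (adjusted P = 0.0797). The groups overlapped on both scales. A gene-level FPKM also counts exons outside the floxed part, so it is a weak check of the deletion. By western blot, the paper found SMYD1 protein undetectable in the tibialis anterior of CKOs. Fast fiber genes gave 22020 to 36640 FPKM in controls and 25540 to 30550 FPKM in CKOs, the slow fiber list at most 354 FPKM, and the cardiac genes Myl7 and Nppb were at 0 in all mice. FPKM of most genes were higher in CKOs, with a median log2 fold change of 0.18 over the 12695 genes tested and 77.9% of them positive. After scaling this median was 0.01 and the positive share 51.2%, so the members' results are given on both scales.

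In controls the most abundant members were Mybpc2 at 386 ± 65.8 FPKM (SD, n = 6) and Mybpc1 at 382 ± 23.4 FPKM, ranks 29 and 31 of all genes by control mean, and these levels did not differ beyond their spread. Next came Myom2 at 174 ± 17.3 FPKM and Myom1 at 161 ± 16.6 FPKM, also within each other's spread. Far below lay Mybph at 9.12 ± 4.39 FPKM, Obsl1 at 3.55 ± 0.521 FPKM and Myom3 at 1.41 ± 0.763 FPKM, and the values of neighbours in this order did not overlap. In CKOs the order was the same except that Myom3, at 6.13 ± 4.54 FPKM, and Obsl1, at 5.05 ± 0.974 FPKM, changed places with overlapping values. Mybpc3 was at or below 0.0412 FPKM in every mouse and was listed at 0 in 6 of them. Mybphl was listed at 0 in 11 mice and was at 0.057 FPKM in control 5. The cardiac members were thus at or near 0 in both groups.

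**Figure D1:**
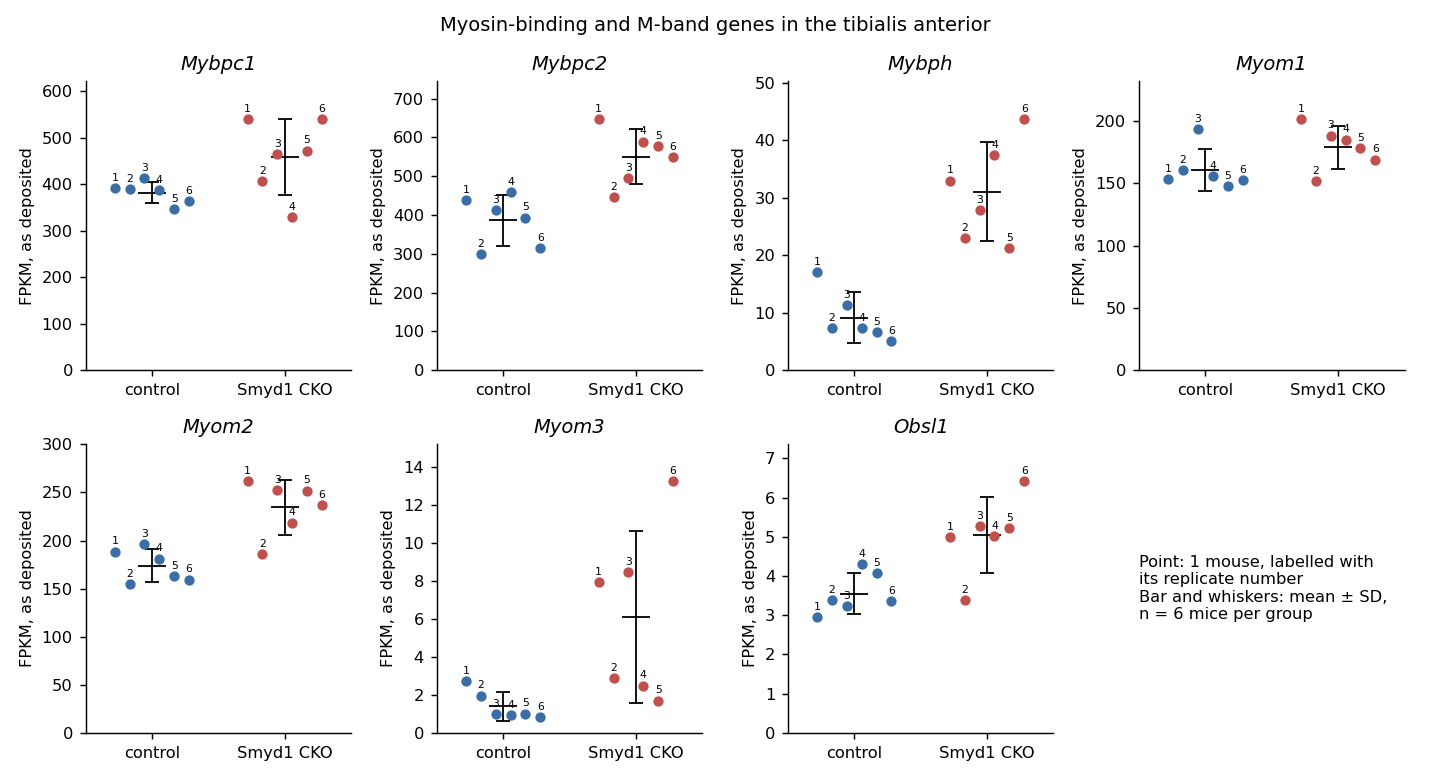
FPKM as deposited of the 7 members that could be tested, by mouse (vertical axes start at 0 and differ between panels). Points are mice with their replicate number, and bars are the mean ± SD (n = 6 per group). In the Mybph panel every CKO point lies above every control point, at 21.3 to 43.7 against 5.04 to 17.0 FPKM.

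Of the 7 members tested, 2 were higher in CKOs at an adjusted P below 0.05 on the FPKM as deposited (Mybph and Myom3), against 2.02% of all genes tested, and 0 were lower, against 0.268%. At an unadjusted P below 0.05, 5 were higher (Mybpc2, Mybph, Myom2, Myom3 and Obsl1), against 18.1% of all genes, and 0 were lower, against 1.76%. The median log2 fold change of the 7 was 0.49, beside 0.18 for all genes. After median-ratio scaling Mybph alone kept an adjusted P below 0.05 (0.764% of all genes were called higher and 0.709% lower), 4 members were higher at an unadjusted P below 0.05 (6.62% of all genes) and 0 were lower (7.44%). The scaled median of the 7 was 0.30, beside 0.01. Because the members were chosen with earlier results of these data known, the shares over all genes are context and not a test. In a whole muscle, fewer cells of a type and less RNA per cell cannot be told apart, and this holds for every difference below.

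**Figure D2:**
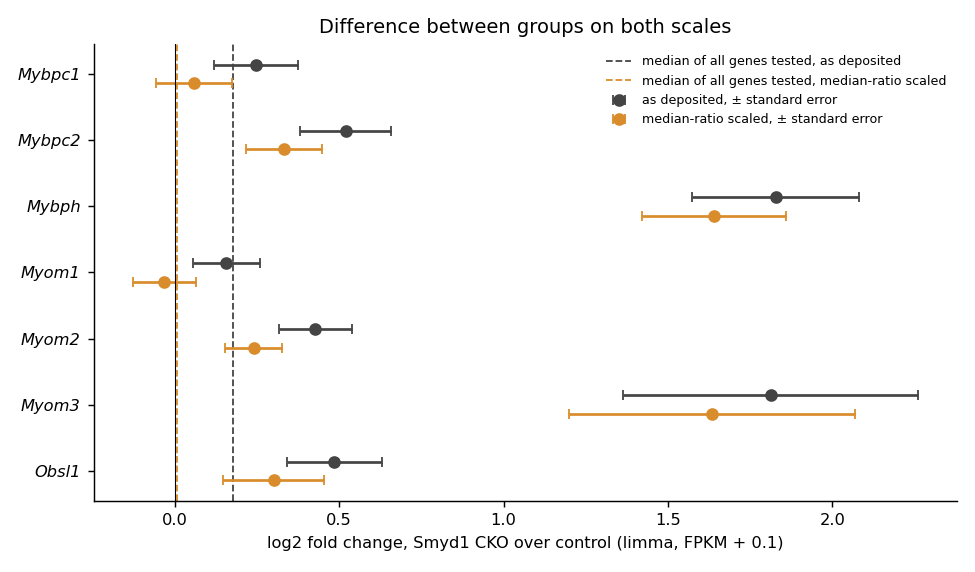
Log2 fold change of CKO over control for the 7 members (horizontal axis, limma on FPKM + 0.1), with the standard error as bars, for FPKM as deposited and after median-ratio scaling. Dashed lines are the medians of all genes tested, 0.18 and 0.01. Mybph and Myom3 lie above 1.6 on both scales and the other 5 below 0.6.

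Mybph rose in every CKO. In controls it was at 17.0, 7.34, 11.4, 7.33, 6.66 and 5.04 FPKM in mice 1 to 6, and in CKOs at 33.0, 23.0, 27.9, 37.4, 21.3 and 43.7 FPKM. The lowest CKO value lay above the highest control value, that of control 1, the library with the high fibroblast markers. This is a 3.55-fold rise (log2 fold change 1.83 ± 0.25 SE, adjusted P = 0.00251, limma). Mybph was the only member whose groups did not overlap, on the FPKM as deposited (2.23% of all genes had every CKO above every control) and on the scaled values (0.788%). After scaling it ran from 5.66 to 15.3 in controls and from 19.6 to 39.7 in CKOs, a 3.12-fold rise (log2 fold change 1.64 ± 0.22 SE, adjusted P = 0.00201). Without control 1 the log2 fold change was 2.03, and leaving out each mouse in turn kept it between 1.68 and 2.03 with an adjusted P below 0.05 in 12 of 12 fits.

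Mybph shares bases with a gene on the other strand: 1162 of its 2329 exon bases in GENCODE M21 also belong to exons of Adora1, the adenosine A1 receptor gene that runs in the opposite direction. Whether reads were assigned by strand is not given in the sources used here, and without strand the reads from the shared bases cannot be assigned to one gene or the other. Adora1 went from 0.441 ± 0.233 FPKM in controls to 1.41 ± 0.474 FPKM in CKOs (log2 fold change 1.52 ± 0.26 SE, adjusted P = 0.00745), and the scaled log2 fold change was 1.36 ± 0.25 SE (adjusted P = 0.0133). It made 5.16 ± 1.95 FPKM per 100 FPKM of Mybph in controls and 4.67 ± 1.59 in CKOs. On the far side of Mybph the next tested gene is Btg2, an antiproliferative gene, whose log2 fold change was of the opposite sign at -1.29 ± 0.34 SE (adjusted P = 0.0623) and -1.48 ± 0.38 SE after scaling (adjusted P = 0.0731).

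The fast form of myosin-binding protein C, Mybpc2, ran from 299 to 459 FPKM in controls (median 403) and from 446 to 648 FPKM in CKOs (median 563). In 5 of 6 CKOs it was above every control, and CKO 2 was at 446 FPKM, just below control 4. After scaling, 3 CKOs were above every control. Its log2 fold change of 0.52 ± 0.14 SE had an adjusted P of 0.0623, and after scaling it was 0.33 ± 0.11 SE (adjusted P = 0.193). Leaving out control 1 gave 0.56 (adjusted P = 0.0236) and leaving out CKO 2 gave 0.58 (adjusted P = 0.0407), so the call on the FPKM as deposited depends on single mice.

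The slow form, Mybpc1, ran from 346 to 413 FPKM in controls (median 388) and from 330 to 541 FPKM in CKOs (median 469). CKOs lay on both sides of the controls, with 4 above them all and CKO 4 below them all. After scaling, 2 were above them all and CKO 4 was still below them all. The control values of Mybpc1 had an SD of 0.09 on the log2 scale as deposited and 0.13 after scaling, against medians of 0.32 and 0.29 over all genes tested. In CKOs the SD was 0.27 and 0.22, against medians of 0.29 and 0.28. The other abundant members, Mybpc2, Myom1 and Myom2, had control SDs of 0.26, 0.14 and 0.14 as deposited. After scaling these were 0.19, 0.17 and 0.08. The log2 fold change of Mybpc1 was 0.25 ± 0.13 SE (adjusted P = 0.295), and 0.06 ± 0.12 SE after scaling (adjusted P = 0.881).

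Of the myomesins, Myom3 moved with the largest spread. Its levels in control mice 1 to 6 were 2.72, 1.97, 0.986, 0.933, 1.02 and 0.840 FPKM. In CKO mice 1 to 6 they were 7.95, 2.90, 8.46, 2.49, 1.70 and 13.3 FPKM. CKO 1, 3 and 6 were high, CKO 2 lay just above control 1, and CKO 4 and 5 fell within the control range. Without control 1 only CKO 5 did, since the next highest control was control 2 at 1.97 FPKM. The log2 fold change was 1.81 ± 0.45 SE, a 3.51-fold rise with an adjusted P of 0.0480. After scaling the value was 1.63 ± 0.43 SE with an adjusted P of 0.0812, so that the call holds on 1 of the 2 scales. With each mouse left out in turn the log2 fold change stayed between 1.52 and 2.097, and the adjusted P between 0.0152 and 0.123. It was below 0.05 without control 1 (0.0152), CKO 2 (0.0453), CKO 4 (0.0409) or CKO 5 (0.0161) and above it without any of the other 8 mice.

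Myom2, which encodes the M-protein of fast fibers, ran from 155 to 197 FPKM in controls (median 172) and from 186 to 261 FPKM in CKOs (median 245). As with Mybpc2, 5 CKOs lay above every control and CKO 2 did not, and for Myom2 the count was also 5 after scaling. Its log2 fold change was 0.43 ± 0.11 SE (adjusted P = 0.0569), and 0.24 ± 0.09 SE after scaling (adjusted P = 0.215). Without control 1 the adjusted P on the FPKM as deposited was 0.0228, and without CKO 2 it was 0.0212.

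Myom1, the general myomesin, was at 148 to 193 FPKM in controls (median 154) and 152 to 202 FPKM in CKOs (median 182), with broad overlap. The log2 fold change was 0.16 ± 0.10 SE (adjusted P = 0.392). The sign depended on the scaling, since after it the value was -0.03 ± 0.10 SE (adjusted P = 0.928). In GENCODE M21, 207 of the 10459 exon bases of Myom1 are shared with Myl12a on the opposite strand, a regulatory light chain gene of nonmuscle myosin that rose (log2 fold change 0.71 ± 0.16 SE, adjusted P = 0.0385, and 0.52 ± 0.13 SE after scaling, adjusted P = 0.0728).

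Obsl1 was at 2.95 to 4.30 FPKM in controls (median 3.37) and 3.38 to 6.41 FPKM in CKOs (median 5.12). Again 5 CKOs lay above every control and CKO 2 lay among the controls. After scaling, 4 CKOs lay above every control. The log2 fold change was 0.49 ± 0.14 SE (adjusted P = 0.0881), and 0.30 ± 0.15 SE after scaling (adjusted P = 0.400). Without CKO 2 it was 0.59 (adjusted P = 0.0212).

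Ratios of genes inside a mouse do not depend on how libraries are scaled to each other. Of 7 such ratios computed, the 6 between members are given, each compared by a two-sided exact permutation test over all assignments of the mice to the groups, with P adjusted over all 7. Mybph per Mybpc1 was at a log2 ratio of -5.49 ± 0.57 (SD, n = 6) in controls and -3.91 ± 0.46 in CKOs, a difference of 1.58 with no overlap (exact P = 0.00217, the smallest the test allows, adjusted P = 0.0152). Per Mybpc2, Mybph differed by 1.31 (exact permutation P = 0.00433, adjusted P = 0.0152), and CKO 5 fell below control 1. So Mybph rose relative to both abundant forms of myosin-binding protein C.

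Within the M-band, Myom1 per Myom2 went from a log2 ratio of -0.12 ± 0.13 in controls to -0.39 ± 0.10 in CKOs, a difference of -0.27 (exact permutation P = 0.00649, adjusted P = 0.0152). In CKOs Myom2 was above Myom1 in 6 of 6 mice and in controls in 5 of 6. Myom3 per Myom1 differed by 1.66 (exact permutation P = 0.0130, adjusted P = 0.0227) and Myom3 per Myom2 by 1.38 (exact permutation P = 0.0281, adjusted P = 0.0394), both with overlapping groups. These last tests lost their call when some mice were left out. Myom3 per Myom1 had an adjusted P of 0.0530 without control 3, 4, 5 or 6. Myom3 per Myom2 had an adjusted P between 0.0576 and 0.0849 without control 3, 4, 5 or 6 or CKO 1, 2, 3 or 6. The balance of slow and fast myosin-binding protein C, Mybpc1 per Mybpc2, differed by -0.27 (exact permutation P = 0.123, adjusted P = 0.123), with CKO 4 far below the rest at -0.84.

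**Figure D3:**
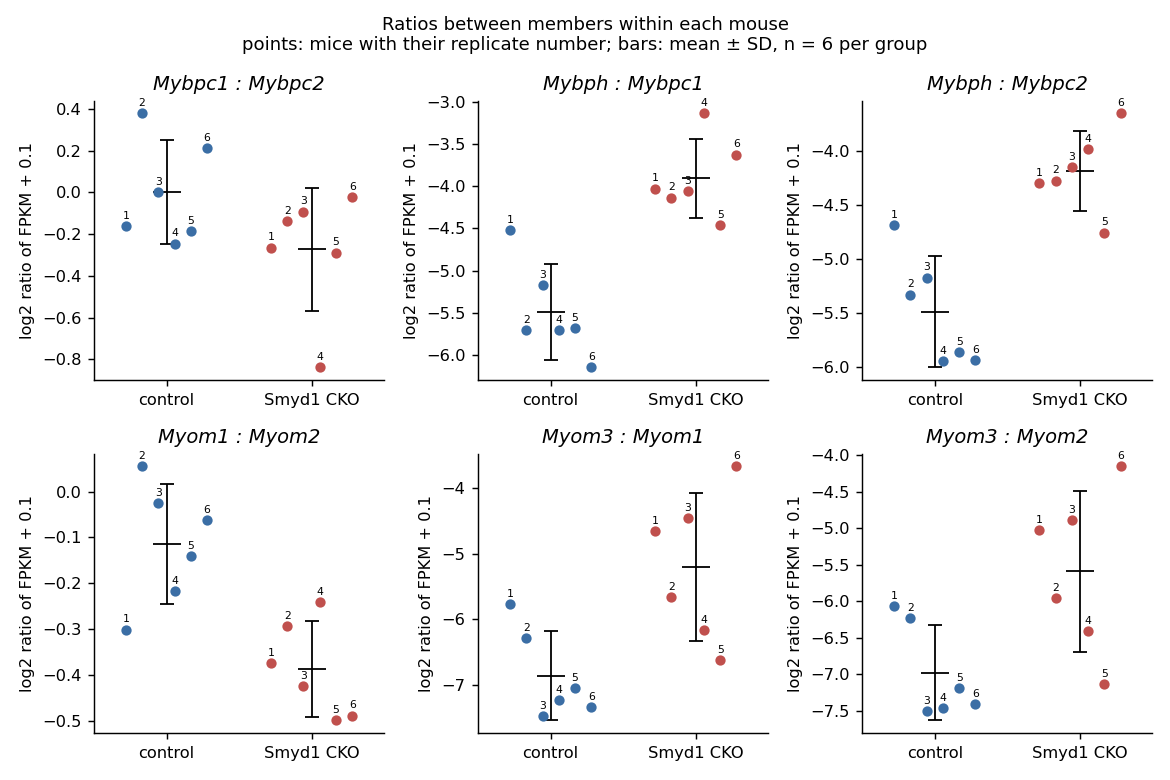
Log2 ratio of FPKM + 0.1 between pairs of genes in each mouse (vertical axes do not start at 0 and differ between panels). Points are mice with their replicate number and bars are the mean ± SD (n = 6 per group). Mybph per Mybpc1 is the panel in which the groups do not overlap, and CKO 4 stands apart at -0.84 in Mybpc1 per Mybpc2.

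As shares, Mybpc2 made up 50.0 ± 4.30% of Mybpc1 and Mybpc2 together in controls and 54.7 ± 4.96% in CKOs, with CKO 4 the highest at 64.1%. Mybph made up 1.151 ± 0.471% of Mybph, Mybpc1 and Mybpc2 together in controls and 2.98 ± 0.754% in CKOs. Myom3 made up 0.422 ± 0.227% of the myomesins in controls and 1.43 ± 1.03% in CKOs, with CKO 6 the highest at 3.16%.

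The genes of the thick filament itself, the heavy and light chains of myosin, formed the first list set beside the members. At an unadjusted P below 0.05, 9 of its 13 genes were higher and 0 lower, and at an adjusted P 3 were higher (Myh1, Myh3 and Myh7b), with a median log2 fold change of 1.05 (0.86 after scaling). The fast IIx heavy chain Myh1 rose from 975 ± 91.0 to 2082 ± 573 FPKM (adjusted P = 0.00734), and from the embryonic Myh3 at 0.906 ± 0.455 FPKM in controls the level rose to 10.03 ± 9.79 FPKM (adjusted P = 0.0358). After scaling, 8 of the list were higher and 1 lower (Myl3) at an unadjusted P below 0.05, and Myh1 alone kept an adjusted P below 0.05 (0.0285), with Myh3 at 0.0524. The abundant light chain genes Myl1 and Mylpf, named after their values were seen, had log2 fold changes of -0.07 ± 0.17 and -0.20 ± 0.21 SE (adjusted P = 0.836 and 0.611), and of -0.26 and -0.39 after scaling. The myosin heavy chains are close paralogs and reads mapping to several places had been discarded, so their FPKM levels are uncertain. By real-time PCR, the paper found Myh1, Myh2, Myh4 and Myh7 increased in this muscle of CKOs. Its western blots showed more total myosin heavy chain protein there.

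Set against the heavy chains, the summed myosin-binding protein C genes and the summed myomesins were lower per unit of heavy chain mRNA in most CKOs, while Mybph and Myom3 were not. This description was chosen after the values were seen and was not tested. The sum of 8 heavy chain genes was 4339 ± 479 FPKM in controls and 7993 ± 1795 FPKM in CKOs. The sum of the 3 myosin-binding protein C genes was 768 ± 75.7 and 1010 ± 123 FPKM. Per 100 FPKM of heavy chain, myosin-binding protein C was at 17.8 ± 1.56 in controls and 13.1 ± 3.05 in CKOs, where CKO 5 was within the control range at 17.9. The summed myomesins were at 7.79 ± 0.806 per 100 FPKM of heavy chain in controls and 5.44 ± 1.12 in CKOs, again with CKO 5 the highest CKO at 7.39. Mybph had a higher mean in CKOs by this measure, at 0.389 ± 0.0649 against 0.212 ± 0.107 per 100 FPKM of heavy chain, as had Myom3 at 0.0725 ± 0.0464 against 0.0338 ± 0.0207, with overlapping groups. For Mybph the overlap rested on control 1, at 0.413. The other controls were at 0.125 to 0.239 and the CKOs at 0.302 to 0.492.

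**Figure D4:**
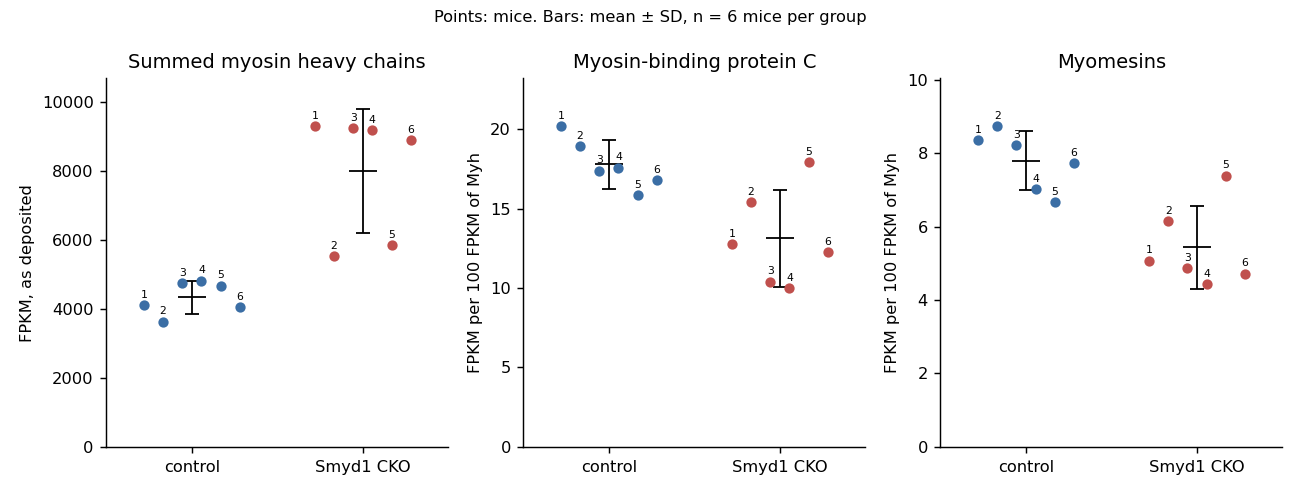
Summed FPKM of 8 myosin heavy chain genes (left), and the myosin-binding protein C genes (middle) and myomesins (right) per 100 FPKM of heavy chain, by mouse (vertical axes start at 0). Points are mice with their replicate number and bars are the mean ± SD (n = 6 per group). CKO 5 lies within the control range in the middle and right panels, while the other 5 CKOs lie below every control in both.

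Of 12 other M-band and titin-linked genes 11 were tested, with 1 higher (Fhl2) and 1 lower (Trim54) at an unadjusted P below 0.05, 0 in either direction at an adjusted P, and a median log2 fold change of -0.12. After scaling 6 were lower and 1 was higher at an unadjusted P below 0.05, and the autophagy receptor gene Sqstm1 was lower at an adjusted P of 0.0416 (log2 fold change -0.48 ± 0.11 SE). Titin, the gene Ttn, was listed at 0 in 3 controls and 5 CKOs and at 640 to 871 FPKM in the other 4 mice, and was left untested. A 0 beside such levels can be a failed estimate, so a listed 0 in these files, including those of Mybpc3 and Mybphl, need not mean that no reads were there. Among 6 genes of myosin assembly and phosphorylation the median was -0.11, and 1 was higher and 1 lower at an unadjusted P (1 and 2 after scaling). The small heat-shock gene Hspb8 was the higher of these (log2 fold change 0.63 ± 0.18 SE, adjusted P = 0.0844, and 0.44 ± 0.15 SE after scaling, adjusted P = 0.168), and the methyltransferase gene Smyd2 was the one that fell at an adjusted P, from 62.1 ± 7.90 to 24.1 ± 5.77 FPKM (adjusted P = 0.000289, and 0.000172 after scaling). The myosin chaperone Unc45b was at a log2 fold change of 0.14 ± 0.12 SE (adjusted P = 0.543), and of -0.05 ± 0.10 SE after scaling (adjusted P = 0.878).

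Since Myom3 marks slower fibers, its mice were compared with the fiber type lists. The slow fiber list summed to 33.5 to 66.6 FPKM in controls and, in CKO mice 1 to 6, to 177, 55.2, 114, 50.1, 48.0 and 354 FPKM. CKO 1, 3 and 6, the mice with high Myom3, were also those with high slow fiber sums, and the other CKOs lay within the control range. Of the 9 slow genes, 7 were higher and 0 lower at an unadjusted P below 0.05 and 0 at an adjusted P, with a median log2 fold change of 1.57 (1.38 after scaling). After scaling 6 were higher and 1 lower at an unadjusted P, the slow light chain gene Myl3 (log2 fold change -0.70 ± 0.30 SE, adjusted P = 0.295, and -0.52 ± 0.29 SE as deposited, adjusted P = 0.330). Myh3, of embryonic and regenerating fibers, followed the same mice at 16.3, 2.17, 11.97, 2.77, 1.30 and 25.7 FPKM. The heavy chain gene Myh2, in neither fiber type list and named after its values were seen, was also highest in CKO 1, 3 and 6. It was at 255, 117, 316, 123, 73.9 and 307 FPKM in CKO mice 1 to 6 and 45.85 to 151 FPKM in controls. Controls 1 and 2 were the highest controls for both Myh2 and Myom3. Staining in the paper showed no significant change in the share of type I (slow) fibers. Its stain for oxidative activity showed more oxidative fibers in this muscle of CKOs. The paper proposes that these most likely reflect more fibers of types IIa and IIx. The fast fiber list had 2 of 10 genes higher and 0 lower at an unadjusted P, with Myh1 higher at an adjusted P, and a median of -0.25. After scaling 2 were higher and 5 lower at an unadjusted P. The part that a change in fiber makeup has in the Myom3 and Mybph values was not tested.

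**Figure D5:**
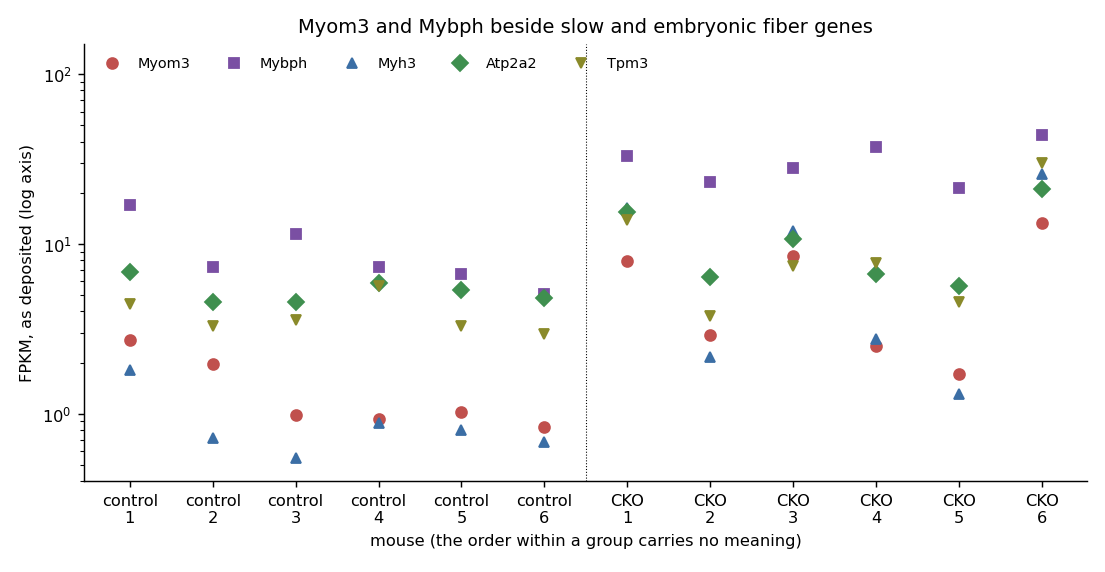
FPKM as deposited (log axis) of Myom3 and Mybph, the embryonic heavy chain Myh3, and the slow fiber genes Atp2a2 and Tpm3 in each mouse. Each symbol is a mouse, and the order of mice within a group carries no meaning. Myom3, Myh3 and Atp2a2 are highest in CKO 1, 3 and 6. Tpm3 is highest in CKO 1 and 6, with CKO 4 (7.72) above CKO 3 (7.37), and Mybph is above every control in all 6 CKOs.

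Embryonic and regenerating fiber genes had 6 of 9 tested genes higher and 0 lower at an unadjusted P below 0.05 and 2 at an adjusted P (Myh3 and Sln, which encodes sarcolipin), with a median of 0.94. After scaling 5 were higher and 1 lower at an unadjusted P (Actc1, log2 fold change -0.72 ± 0.28 SE, adjusted P = 0.255), and Sln alone kept an adjusted P below 0.05 (0.0236). Their summed level overlapped, at 126 to 266 FPKM in controls and 107 to 338 FPKM in CKOs, and most of it was Actc1, at 115 to 252 and 88.8 to 314 FPKM. In the paper, protein staining for embryonic myosin heavy chain found almost no positive fibers in this muscle of CKOs. Cardiac-enriched genes had 4 of 8 tested, 1 of them higher at an unadjusted P (Myl4, also an embryonic gene) and 0 at an adjusted P, with a median of 0.81. All 5 satellite cell markers were higher at an unadjusted P and 0 at an adjusted P, with sums of 2.999 to 7.68 FPKM in controls and 5.38 to 11.3 FPKM in CKOs and a median log2 fold change of 0.86. After scaling 3 of them were higher at an unadjusted P. Schwann cell markers had 3 of 5 higher (11.2 to 15.5 against 13.0 to 20.5 FPKM summed), fibroblast markers 2 of 5 (177 to 680 against 243 to 404 FPKM) and adipocyte markers 1 of 3 tested (94.1 to 306 against 93.5 to 210 FPKM), with 0 at an adjusted P in each. Their medians were 0.41, 0.43 and 0.44, and after scaling 0, 1 and 0 genes were higher at an unadjusted P. Without control 1 the fibroblast sum of controls was at 177 to 224 FPKM and the satellite cell sum at 2.999 to 5.34 FPKM, both below every CKO. After scaling both sums overlapped even without control 1, with controls up to 232 and 5.24 and CKOs from 224 and 4.96. Macrophage markers (9.88 to 36.0 against 12.7 to 21.4 FPKM) and endothelial markers (26.9 to 40.8 against 27.0 to 45.2 FPKM) had 0 of 5 past either threshold in limma, with medians of 0.13 and 0.07. Their part in the members' values was not tested.

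The members did not form 1 profile across the mice. On scaled log2 values over the 12 mice, which share the 2 genotypes, Pearson's r was 0.80 between Mybph and Myom3 and 0.54 once the group means were removed. Mybpc2 and Myom2, the fast members, had an r of 0.77 (0.50 within groups), and Myom1 and Myom2 one of 0.31 (0.61 within groups). Mybpc1 and Mybpc2 had an r of 0.02.

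Among 7969 genes with a mean of at least 1 FPKM, those most like Myom3 were Ablim1, an actin-binding LIM gene (r = 0.97, and 0.95 within groups), Ankrd1, a stretch-responsive ankyrin repeat gene (0.96 and 0.93), and Itga9, an integrin gene (0.96 and 0.93). Ankrd1 was at 3.50 to 10.01 FPKM in controls and at 39.3, 17.0, 44.5, 11.7, 4.16 and 79.9 FPKM in CKO mice 1 to 6, so it was high in CKO 1, 3 and 6 as well. The genes most like Mybph were 3632451O06Rik (0.96 and 0.79), App, the amyloid precursor protein gene (0.94 and 0.77), and Vwa5a (0.93 and 0.81). Every CKO was above every control in 3632451O06Rik, at 1.99 to 5.11 against 0.394 to 1.35 FPKM. Most like Mybpc2 were Sec62, Trim11 and Papolg (0.87 to 0.89), and most like Myom2 were Kat2b, Slc44a2 and Sync (0.90 to 0.91). Mybpc1 came closest to Tom1l2, Fto and Ctdp1 (0.86 to 0.88), Myom1 to Acad9, Pygo1 and Dst (0.85 to 0.87), and Obsl1 to Extl3, Rb1 and Ubn2 (0.91 to 0.94). These correlations over 12 mice are descriptions, since the highest of 7969 values was taken each time.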

How the data were processed

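RNA from the tibialis anterior of 12 mice (6 per group) was depleted of ribosomal RNA. The authors trimmed adapters, aligned reads to mm9 with bowtie2 and tophat (TopHat2 2.0.10 in the submitters' processing notes) with at most 2 mismatches, discarded reads mapping to several places, and deposited FPKM computed with Cufflinks 2.1.1. The annotation and strand handling are not given in the sources used here. Counts were not used here, so the number of reads is unknown and no counting interval is given. Of 23950 rows, 27 held a date in place of a symbol and were dropped.

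Groups were compared with limma 3.58.1 (R 4.3.3, trend) on log2(FPKM + 0.1), so folds of low genes are understated, for the 12695 genes that reached 0.1 FPKM in 6 or more mice, with Benjamini-Hochberg adjustment over all of them, and again after median-ratio scaling. The code was tested on simulated data. Named genes were all 9 members, up to 3 genes with the smallest P per list, list genes that check the tissue and the 3 genes most like each member. Of the nearest tested genes on either side of each member, only Adora1, Btg2 and Myl12a are described above. The others had log2 fold changes from -0.28 (Inha) to 0.62 (Spi1) as deposited. Their lowest adjusted P in limma was 0.0830 (Sort1), and 0.288 after scaling. The list genes Ttn, Unc45b, Myl1, Mylpf, Myl3, Myh2 and Actc1 were chosen after their values were seen. A list gene and the ratio that uses it are not reported here. The members and the 13 gene lists were chosen with earlier results of these data known. Alternatives were another pseudocount, filter, scaling or variance model, sample weights, the replicate number as a block and each mouse left out.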

Additional observations from a re-analysis of the deposited data

Results flagged for a closer look

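The highest or lowest mouse of a group was compared with its nearest neighbour for 42 groups of 6 mice, and 2 stood apart by Dixon's criterion at 95%, which chance alone gives in about 1 of 20 groups. Myom1 in control 3 was at 193.3 FPKM against 147.9 to 160.5 FPKM in the other 5 controls, a gap of 0.7217 of the group's range. After median-ratio scaling control 3 did not stand apart, at 189.9 beside control 2 at 187.8, and control 1 was the lowest at 137.2. The log2 ratio of Mybpc1 to Mybpc2 in CKO 4 was -0.8388 against -0.2885 to -0.0218 in the other 5 CKOs, a gap of 0.6736 of the range. This mouse had the lowest Mybpc1 of all 12, at 329.5 FPKM, beside a Mybpc2 of 589.4 FPKM.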

How the results depend on the processing

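Mybph kept its direction and an adjusted P below 0.05 under every alternative run on either scale (7.02e-05 to 0.00866 on the FPKM as deposited). Of the 7 members tested, 2 were called higher in the comparison as reported. The count was 1 with median-ratio scaling, a pseudocount of 1, no filter, quantile normalization or no variance trend, 4 with a filter at 1 FPKM, 5 with sample weights, and 1 to 5 with each mouse left out. It was 4 without control 1 (Mybpc2, Mybph, Myom2 and Myom3), where 1075 of all genes tested were higher. Without CKO 2 it was 5 (the same 4 and Obsl1), where 302 of all genes were higher. With the filter at 1 FPKM, 277 of all genes were higher. After scaling the count of 1 ran from 1 to 2, with Myom3 added without control 1 (adjusted P = 0.0479) or CKO 5 (adjusted P = 0.0203). Over all genes, 257 were higher and 34 lower. These were 97 and 90 with median-ratio scaling, 101 and 68 with quantile normalization, and 1400 and 115 with sample weights, and 170 were higher with no filter. With each mouse left out, 88 to 1075 genes were higher (88 without CKO 1 and 1075 without control 1) and 18 to 69 lower, and after scaling 46 to 180 were higher and 34 to 200 lower.

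Myom3 was no longer called with a pseudocount of 1 (log2 fold change 1.36, adjusted P = 0.0585), no filter (0.0901), quantile normalization (0.0871) or no trend (0.0760). Myom1 turned from 0.1568 to -0.0312 with median-ratio scaling, and on that scale the value lay between -0.09 and 0.0038 with each mouse left out, at 0.0001 without control 2, 0.0038 without control 3 and 0.0028 without CKO 2. The difference of the log2 ratio Myom3 to Myom2 was 0.93 with a pseudocount of 1 (adjusted P = 0.0788). With each mouse left out, the differences ran from -0.32 to -0.16 for Mybpc1 to Mybpc2, 1.43 to 1.77 for Mybph to Mybpc1, 1.20 to 1.47 for Mybph to Mybpc2, -0.31 to -0.24 for Myom1 to Myom2, 1.35 to 1.94 for Myom3 to Myom1 and 1.10 to 1.69 for Myom3 to Myom2. The cause of these shifts was not tested.

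Mice with the same replicate number share only that number. The correlation of their deviations was over 0.1 in 2 of 6 pairs (mean 0.0404 against -0.0088 for other pairs), and in 2 of 6 numbers both mice correlated best with each other. With the replicate number as a block 3 members (Mybpc2 added, adjusted P = 0.0477), 272 genes higher and 40 lower were called, and 1 member, 91 and 83 after scaling. The log2 ratio Mybpc1 to Mybpc2 then differed by -0.27 with an adjusted P of 0.0365 (exact sign flips of 6 pairs). The block changed no other call of a member or of a ratio between members.

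With 6 mice per group and unknown read depth, values of Mybpc3 and Mybphl near 0 cannot be set against a detection limit, and a difference that misses the threshold is not shown to be absent.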
